A study of Mus musculus with 25 samples.

Results

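The genes described here are 34 genes of hepatocyte secretion and metabolism, measured in gonadal white adipose tissue. They were chosen by name, with levels in these same arrays already known, and 33 of the 34 had a transcript cluster carrying a single gene symbol, among 22180 genes in all. Gc, the vitamin D-binding protein gene, was not analysed here. The rule also divided the 25 arrays by their albumin transcript (Alb) at a fixed log2 level lying between 11.84 and 12.96, values of the nearest arrays, which placed 11 arrays above and 14 not above. The levels that separate these arrays therefore chose both the genes and the sides, and they are given as a description without a test.

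RNA came from gonadal fat of male mice heterozygous for the ApoE3L and human CETP transgenes, 1 mouse to an array, hybridised to Affymetrix Mouse Gene 2.0 ST arrays. All groups, chow included, carried both transgenes. From an age of 12 weeks the mice ate a low-fat diet (LFD) with 10% of fat or a high-fat diet (HFD) with 60% of fat and 0.25% cholesterol, for 4, 8 or 12 weeks. The baseline group ate chow and was taken at an age of 12 weeks. The labels give ages of 16 weeks and 20 weeks for the 4-week and 8-week groups, and 34 weeks for the 12-week groups. The last conflicts with 12 weeks of diet begun at 12 weeks of age, and the conflict is not settled by the labels. Time on diet is used here, and a comparison of 12 with 8 weeks may span a longer difference in age than in diet. Each group had 4 arrays, apart from chow with 2 and HFD at 4 weeks with 3. The diets differ in fat, carbohydrate and cholesterol, and these cannot be told apart. The number of arrays limits the precision.

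Hepatocytes make most proteins of blood plasma, among them albumin, the apolipoproteins, the clotting factors and their inhibitors, and they hold the urea cycle and much of amino acid breakdown. These genes are driven together by liver-enriched transcription factors of the HNF1, HNF4 and C/EBP families. White adipose tissue is known for storing fat and secreting adipokines, and it is not a main source of most of these plasma proteins.

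Promoter sequences are shown for 4 genes whose levels the results turn on, Alb, Ahsg and Fgb, which followed the division of the arrays, and Ass1, which did not. RefSeq (GRCm38.p6) had entries for 27 of the 34 genes, and the 250 bases before each gene's start were searched on both strands. Capitals mark a C/EBP-type match, TTGCNNAA in either direction, and Ass1 has no capitals because these letters were not in its window. Fgg, Hamp, Tat, Otc, Apoa1, F2, Serpinc1, Apoh, Tdo2, Mup3, Ambp, Hpd, Vtn, Itih1 and Itih3 had no such match either, yet followed the division. Igfals, which did not follow it, also had none.
Alb (chr5:90460620-90460869, plus strand): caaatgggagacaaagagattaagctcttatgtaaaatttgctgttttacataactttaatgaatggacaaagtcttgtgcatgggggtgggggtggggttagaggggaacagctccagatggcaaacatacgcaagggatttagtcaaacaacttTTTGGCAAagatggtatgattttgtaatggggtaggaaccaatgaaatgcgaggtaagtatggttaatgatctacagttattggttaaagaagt
Ahsg (chr16:22891765-22892014, plus strand): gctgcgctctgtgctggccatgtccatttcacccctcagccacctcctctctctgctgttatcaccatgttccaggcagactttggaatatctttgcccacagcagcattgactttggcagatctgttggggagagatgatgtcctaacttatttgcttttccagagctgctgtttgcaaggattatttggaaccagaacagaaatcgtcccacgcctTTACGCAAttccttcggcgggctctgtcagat
Fgb (chr3:83049864-83050113, minus strand): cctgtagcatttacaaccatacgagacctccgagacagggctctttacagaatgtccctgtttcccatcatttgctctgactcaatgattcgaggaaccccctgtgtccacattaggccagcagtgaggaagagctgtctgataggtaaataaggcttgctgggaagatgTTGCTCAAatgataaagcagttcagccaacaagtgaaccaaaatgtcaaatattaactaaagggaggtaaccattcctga
Ass1 (chr2:31470020-31470269, plus strand): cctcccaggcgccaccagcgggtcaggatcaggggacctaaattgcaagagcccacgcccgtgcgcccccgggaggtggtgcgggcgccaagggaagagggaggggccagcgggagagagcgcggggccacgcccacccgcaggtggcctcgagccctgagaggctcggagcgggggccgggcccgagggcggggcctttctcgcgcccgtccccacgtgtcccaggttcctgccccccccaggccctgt

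The match began 94 bases before the start in Alb, 80 in Fgb and 32 in Ahsg. A C/EBP-type match was present in 9 of the 27 genes (33.3%), against 10.8% of the 27018 genes with windows of the same length. The 9 genes were Alb, Apoa2, Apob, Ahsg, Fga, Fgb, Hpx, Serpina1d and Itih2. A gene counted once if any of its windows matched, and 2 of the 27 had more than 1 window. A match to an HNF1-type motif was present in 1 of 27 genes (3.7%), Gc, against 0.44% of all. An HNF4-type match, CAAAGTCCA, was present in 0 of 27, against 0.452% of all. The motifs' matches were counted separately, and a match is a description of letters, not of binding.

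The plasma protein genes were at high levels in 11 arrays, all from mice on diet for 8 or 12 weeks. Of the 33 genes, 31 lay higher in every one of these 11 arrays than in any of the other 14, and 2 overlapped, Igfals and Ass1. Among all 22180 genes 1.19% lay higher without overlap and 0% lay lower. Since Alb set the sides and the genes were chosen for this pattern, nothing is read from that difference. Mean differences between the sides had a median of 4.57 on the log2 scale over the 33 genes, beside −0.01 over all genes. In bulk tissue, fewer cells of a type and less RNA per cell cannot be told apart.

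Alb, the main protein of blood plasma, was at 6.53 and 6.60 in the chow arrays (log2 level). At 4 weeks it was at 11.64, 9.65, 7.07 and 10.10 in LFD arrays 1 to 4, and at 11.40, 8.24 and 6.95 in HFD arrays 1 to 3. No array at 4 weeks reached the threshold, and the diets overlapped. At 8 weeks Alb was at 13.38, 13.32, 8.41 and 9.06 under LFD and at 10.46, 13.62, 13.52 and 13.34 under HFD. At 12 weeks it was at 13.42, 13.35, 11.84 and 13.16 under LFD and at 13.09, 12.96, 6.45 and 13.07 under HFD. Every later group thus held arrays on both sides, 2 of 4 above in LFD at 8 weeks and 3 of 4 above in each of the other 3 groups. The array just inside the threshold was HFD 12-week array 2 at 12.96, and the array just outside was LFD 12-week array 3 at 11.84. The mean of the other 32 genes placed all 25 arrays on the same side as Alb, with its widest gap between 7.07 and 8.86.

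**Figure D1:**
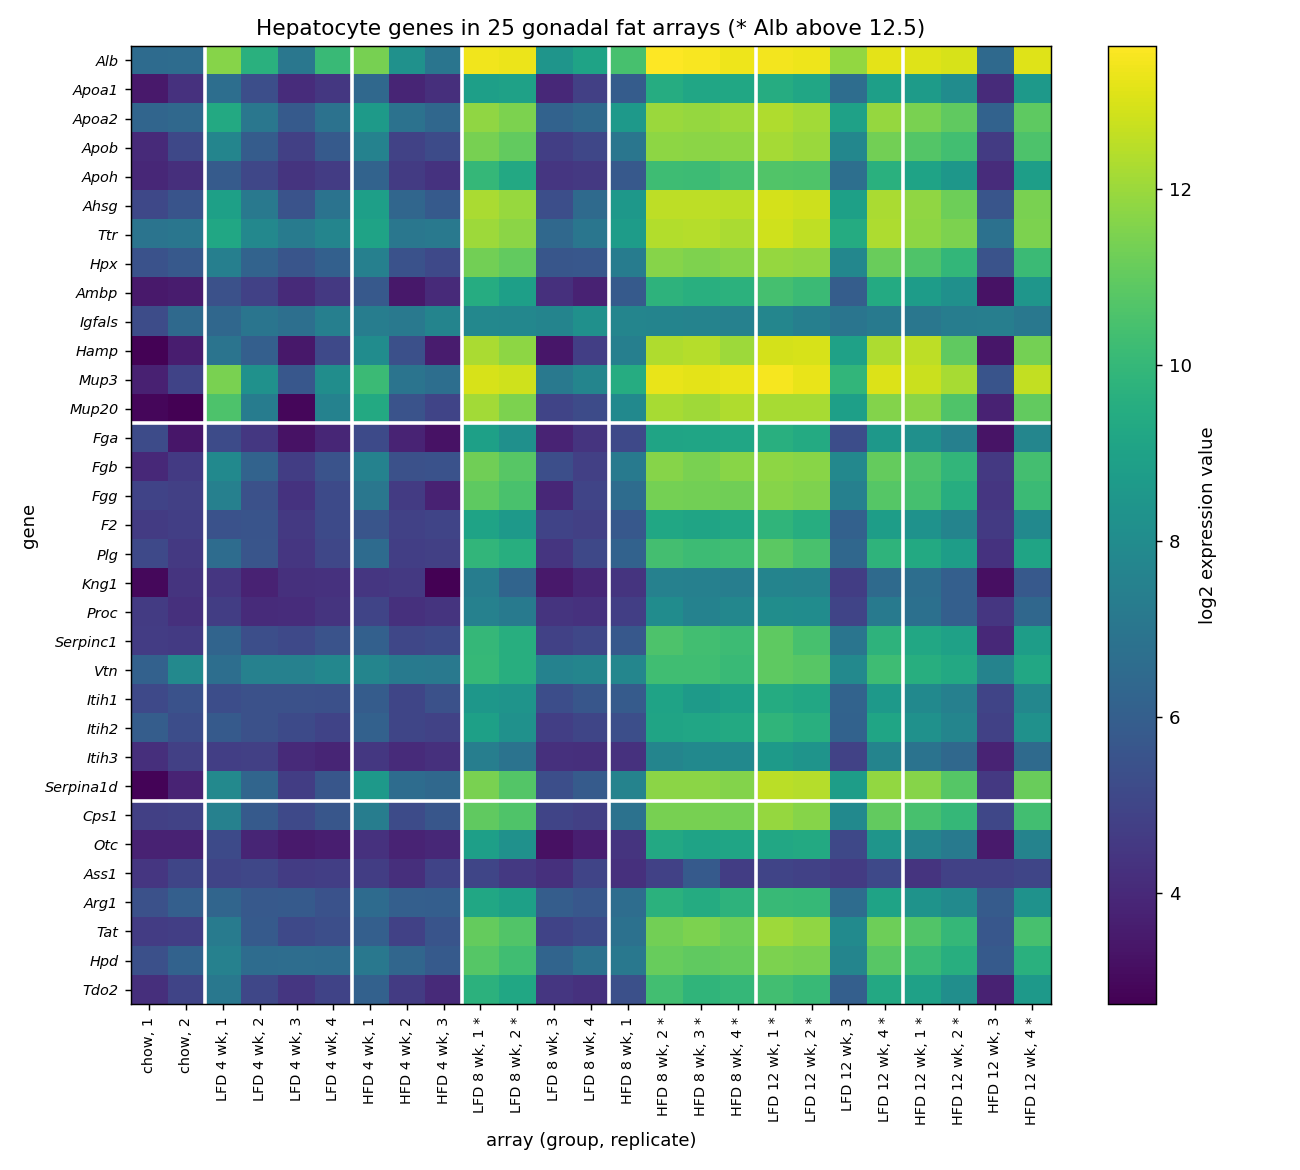
Log2 level of the 33 measured genes (rows, ordered by transport, coagulation and enzyme genes) in each of the 25 arrays (columns, by group and replicate), with a star on the 11 arrays with Alb above the threshold. All rows share 1 colour scale. In each row except Igfals and Ass1, every starred column lies higher on it than every other column. Some of these rows stay low on the scale, for example Kng1, at 5.79 to 7.66 in the starred columns. Levels are read between arrays within a row, not between genes.

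Of the 13 transport and hormone genes, 12 lay higher without overlap in the 11 arrays, by 4.09 to 6.95. The largest difference was that of Hamp, which encodes the iron hormone hepcidin. Hamp spanned 10.95 to 12.94 (median 12.30) in the 11 arrays and 2.82 to 8.98 (median 4.95) in the other 14, a mean difference of 6.95 or 124-fold. Mup20, a major urinary protein gene, differed by 5.72 on average. Its sides nearly met, at 10.61 in the lowest of the 11 arrays and 10.58 in LFD 4-week array 1, a gap of 0.03. Apob, the structural protein of low-density lipoprotein, had the widest gap (2.55), with 10.33 to 12.17 (median 11.39) above and 4.03 to 7.78 (median 5.17) in the other arrays. Probes for Mup3 and Mup20 may also bind RNA of near-identical family members, and the same holds for Serpina1d, so these 3 genes are uncertain as single genes.

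Apoa1, the main protein of high-density lipoprotein, had the smallest difference of the 12, 4.09, with 8.05 to 9.47 in the 11 arrays. Igfals, the acid-labile subunit of the insulin-like growth factor complex, did not separate the arrays. It lay between 7.04 and 7.82 in the 11 arrays and between 5.28 and 8.20 in the others, a mean difference of 0.38. Its highest value was in LFD 8-week array 4, where Alb was at 9.06.

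All 13 coagulation and inhibitor genes lay higher without overlap, by 2.62 to 5.52. The largest differences were those of Serpina1d, an alpha-1-antitrypsin gene (5.52), and of the fibrinogen chains Fgg (5.50) and Fgb (5.30). Fgb, whose promoter is printed above, spanned 9.90 to 11.79 (median 11.25) in the 11 arrays and 4.00 to 7.91 in the others. Vtn, which encodes the adhesion protein vitronectin, and Proc, which encodes the anticoagulant protein C, had the smallest differences at 2.62 and 2.86. Vtn was already at 6.10 to 7.86 in the 14 other arrays, and its highest value there was in chow array 2.

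Among the 7 enzyme genes, 6 lay higher without overlap, by 3.15 to 5.36. Tat, which starts tyrosine breakdown, differed by 5.36. Cps1, the entry enzyme of the urea cycle, differed by 5.17, and Otc, the next enzyme of that cycle, by 4.57. Arg1, the last enzyme of the cycle, differed by 3.15. Ass1, the urea cycle enzyme between Otc and Arg1 in order, was at 4.39 to 5.82 in the 11 arrays and at 4.20 to 5.07 in the others, a mean difference of 0.22. Its highest value was in HFD 8-week array 3, at 5.82. Of the 4 urea cycle genes, 3 thus separated the arrays and Ass1 overlapped. Ass1 lay around the array medians (5.04 to 5.36) on both sides, and whether its cluster reports the transcript was not tested.

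**Figure D2:**
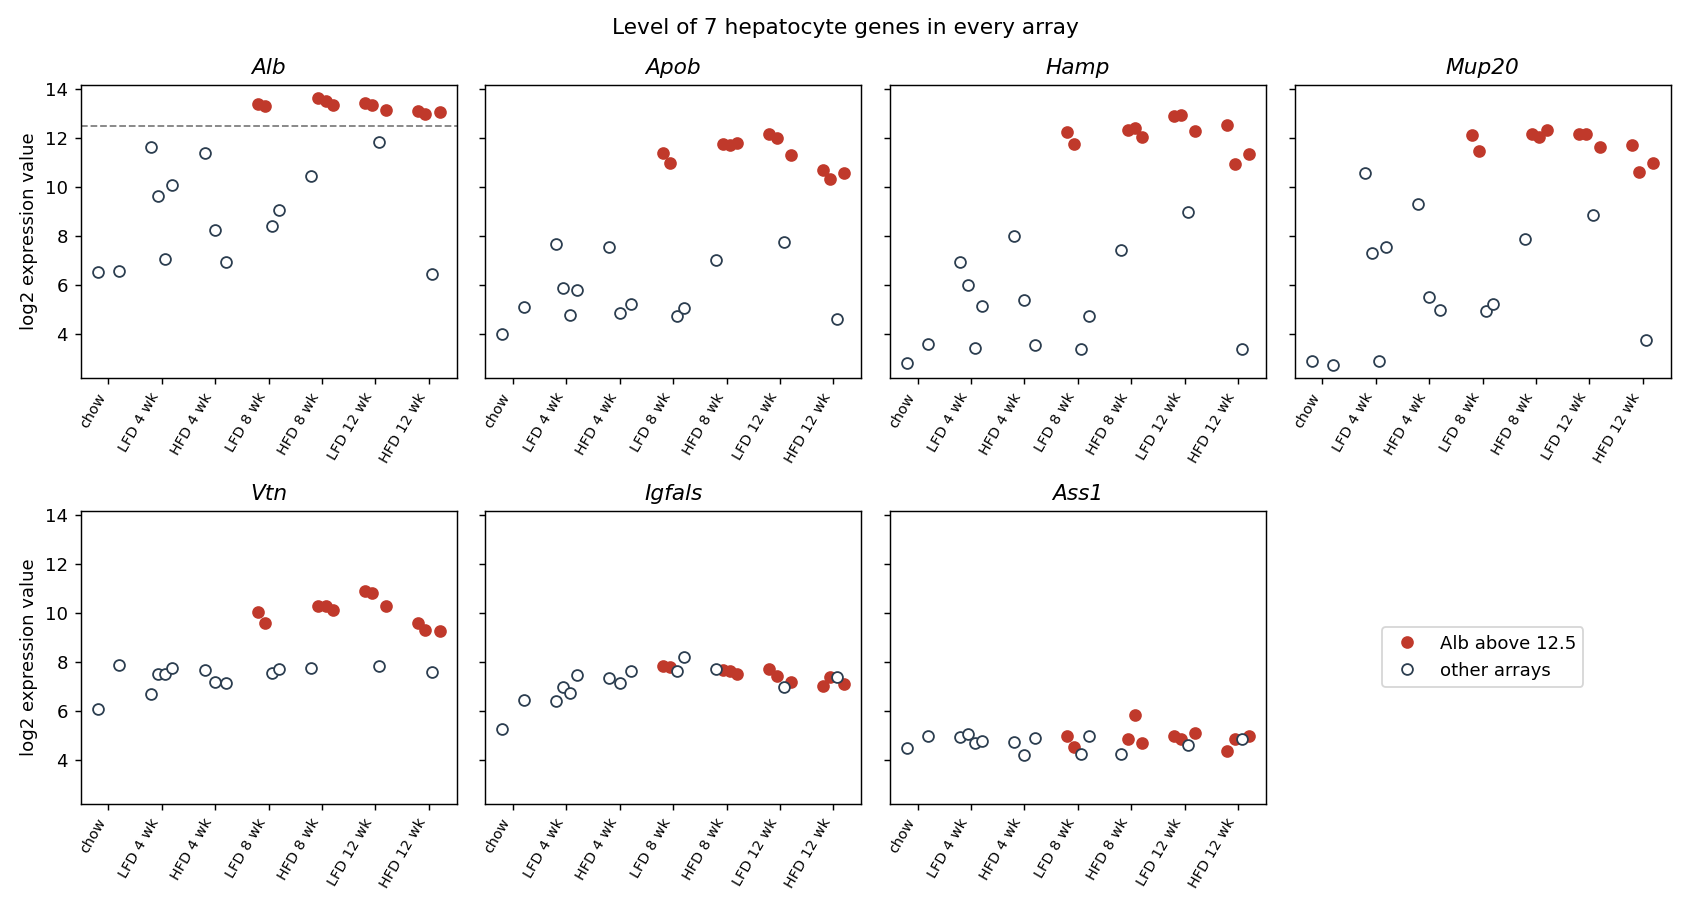
Log2 level of 7 genes in every array, by group, with filled points for the 11 arrays with Alb above the threshold and open points for the other 14; the dashed line in the first panel is the threshold. Alb, Apob, Hamp and Vtn show 2 separate bands, Mup20 nearly meets at 10.58 and 10.61, and Igfals and Ass1 mix the sides.

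The 14 other arrays were not alike. Averaged over the 33 genes, LFD 12-week array 3 stood at 7.22 and LFD 4-week array 1 at 7.03. Next came the first HFD arrays of the 4-week group (6.93) and of the 8-week group (6.63), and the remaining 10 arrays lay between 4.64 and 5.93. These 4 arrays also had the most Alb of the 14, and for 30 of the 31 separating genes one of them was the highest of the 14. Which of them was highest depended on the gene. LFD 12-week array 3 was highest for 19 genes, for example Hamp, at 8.98 against 6.93 in LFD 4-week array 1. LFD 4-week array 1 was highest for 9, for example Mup20, at 10.58 against 8.88 in LFD 12-week array 3. Mup3 was likewise higher in LFD 4-week array 1 (11.45) than in LFD 12-week array 3 (9.89), whereas Tat was at 7.27 and 7.96 in that order.

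Within the 11 arrays most genes shared their highest and lowest arrays. The mean of the 33 genes ran from 8.98 in HFD 12-week array 2 to 10.73 in LFD 12-week array 1. LFD 12-week array 1 was the highest array for 25 of the 31 separating genes, and HFD 12-week array 2 the lowest for 26. For 30 of the 31 the lowest array was one of the 3 HFD 12-week arrays. The spread over the 11 arrays differed between genes. It was narrowest for Alb (SD 0.20) and Igfals (0.28), and widest for Otc (0.79) and Apoh, a phospholipid-binding plasma glycoprotein (0.75). The highest value of the whole table was 14.13.

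Transcripts of other liver and non-liver cells were set beside these levels. Of 72 other hepatocyte genes measured, 27 of 38 secreted and 26 of 34 metabolic ones lay higher without overlap in the same 11 arrays. Examples were the carboxylesterase gene Ces1c (9.50 to 11.38 against 3.23 to 7.14) and Cyp7a1, the rate-limiting enzyme of bile acid synthesis (7.34 to 9.73 against 3.29 to 5.19). Of 14 liver transcription factor genes, 7 did so. Of 7 Kupffer cell markers 2 did so, Cd5l among them (5.05 to 6.70 against 3.53 to 4.90), and of 9 liver sinusoidal endothelial markers 2, Clec4g (5.42 to 7.05 against 3.86 to 4.67) and Stab2. Stellate cell (9), cholangiocyte (5), pancreatic acinar (10) and kidney (10) marker lists held 0 such genes, and 1 of 11 intestinal markers was one, Fabp2 (5.64 to 7.42 against 3.60 to 5.01).

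The tissue's own markers were high on both sides. The mean of 13 adipocyte markers was 11.74 to 12.12 in the 11 arrays and 10.99 to 12.19 in the others. The mean of 15 epididymis markers was 3.72 to 3.91 in the 11 arrays and 3.58 to 11.56 in the others. Xist, the transcript of the inactive X chromosome of female cells, lay at 5.03 to 6.76 in the 11 arrays and at 3.92 or below in the other 14, in mice all labelled male. The mean of 3 Y-linked genes was 7.70 to 7.97 and 7.75 to 8.27 in that order. Of 12 genes with a male bias in liver, 5 lay higher without overlap in the 11 arrays, Cyp2d9 among them (5.15 to 8.03 against 2.69 to 4.83). Of 11 with a female bias, 2 did so, Cyp2a4 among them (6.56 to 9.43 against 3.05 to 5.47). The median differences between the sides were 1.42 and 0.63 in that order. The part of these other transcripts in the results below was not tested.

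Diets were then compared within the 11 arrays, as HFD minus LFD, with limma over all 22180 genes and Benjamini-Hochberg adjustment, and a gene was called at an adjusted p under 0.05. The arrays had been picked by Alb, so the comparison holds only for arrays above the threshold, and Alb's own range among them was narrowed by that choice. HFD had 3 arrays at each time, and LFD had 2 at 8 weeks and 3 at 12 weeks.

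At 12 weeks, most of the genes were lower under HFD. All 33 differences were negative (51% of all genes were), and 27 genes fell, while 3.98% of all genes were called lower and 4.14% higher. The falls ran from 0.72 for Apoa1 to 1.62 for Itih3, with a median of −1.30 over the 33 genes. The 3 arrays of one diet did not overlap those of the other, with HFD lower, for 28 genes, against 11.1% of all genes. Adjusted p values of the 27 lay between 0.00108 and 0.0294 (limma).

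Of the 13 transport genes, 9 fell at 12 weeks. Apob was at 12.17, 11.99 and 11.32 under LFD and at 10.70, 10.33 and 10.58 under HFD. All HFD arrays were below all LFD arrays, and Apob fell by 1.29 ± 0.20 (SE; limma adjusted p = 0.00168, n = 3 and 3). Ahsg, the fetuin-A gene, was at 12.93, 12.77 and 12.22 under LFD and at 11.80, 11.22 and 11.42 under HFD, and fell by 1.16 ± 0.19 (limma adjusted p = 0.00219). Ambp, which encodes the precursor of alpha-1-microglobulin and bikunin, and Apoh had the largest falls of the transport genes, by 1.53 ± 0.24 and 1.52 ± 0.26. Hpx, which encodes the haem carrier hemopexin, fell by 1.36 ± 0.21. Apoa2, Ttr, the thyroxine carrier transthyretin, and Mup3 fell by 1.02 ± 0.16, 1.00 ± 0.15 and 0.73 ± 0.15, and Apoa1 fell by 0.72 ± 0.19 (limma adjusted p = 0.0294).

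The other 4 transport genes were not called. Alb was at 13.42, 13.35 and 13.16 under LFD and at 13.09, 12.96 and 13.07 under HFD. Its arrays did not overlap, but the difference was small, −0.27 ± 0.12 (limma adjusted p = 0.225). Hamp was at 12.90, 12.94 and 12.30 under LFD and at 12.53, 10.95 and 11.36 under HFD, so HFD array 1 lay within the LFD range, and the difference was −1.10 ± 0.32 (limma adjusted p = 0.0549). Mup20 differed by −0.89 ± 0.26 (limma adjusted p = 0.0534) and Igfals by −0.27 ± 0.14 (limma adjusted p = 0.333), both with overlapping arrays.

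Of the 13 coagulation and inhibitor genes, 12 fell at 12 weeks. Itih3, a heavy chain of the inter-alpha-trypsin inhibitors, was at 8.65, 8.38 and 7.63 under LFD and at 6.89, 6.40 and 6.50 under HFD. The groups did not overlap, and its fall of 1.62 ± 0.23 (limma adjusted p = 0.00129) was the largest of the 33. The other heavy chains, Itih1 and Itih2, fell by 1.37 ± 0.19 and 1.46 ± 0.22. The fibrinogen chains Fga, Fgb and Fgg fell by 1.37 ± 0.26, 1.22 ± 0.21 and 1.30 ± 0.24. Fgb was at 11.79, 11.67 and 11.04 under LFD and at 10.57, 9.90 and 10.36 under HFD, without overlap.

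Prothrombin (F2) and plasminogen (Plg), the precursors of the clotting and the clot-dissolving protease, fell by 1.44 ± 0.24 and 1.31 ± 0.23. The anticoagulant genes Proc and Serpinc1, which encodes antithrombin, both fell by 1.37 ± 0.24. Vtn fell by 1.26 ± 0.18 and Serpina1d by 1.07 ± 0.24. Both precursors of proteases and inhibitors of proteases are thus among the genes that fell. Kng1, which encodes kininogen, was at 7.66, 7.61 and 6.49 under LFD and at 6.68, 6.02 and 5.79 under HFD. One HFD array lay above the lowest LFD array, and the difference of −1.09 ± 0.33 was not called (limma adjusted p = 0.0625).

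Of the 7 enzyme genes, 6 fell at 12 weeks. Hpd, the dioxygenase that follows Tat in tyrosine breakdown, was at 11.47, 11.39 and 10.79 under LFD and at 10.11, 9.55 and 9.66 under HFD, without overlap. It fell by 1.44 ± 0.20 and had the smallest adjusted p of the 33 (limma, 0.00108). Tat fell by 1.32 ± 0.21, and Tdo2, which opens the tryptophan ring, by 1.34 ± 0.27. In the urea cycle, Cps1 fell by 1.26 ± 0.20, Otc by 1.55 ± 0.24 and Arg1 by 1.53 ± 0.23. Ass1 was at 4.99, 4.86 and 5.12 under LFD and at 4.39, 4.86 and 5.0 under HFD, and the overlapping groups differed by −0.24 ± 0.26 (limma adjusted p = 0.696).

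**Figure D3:**
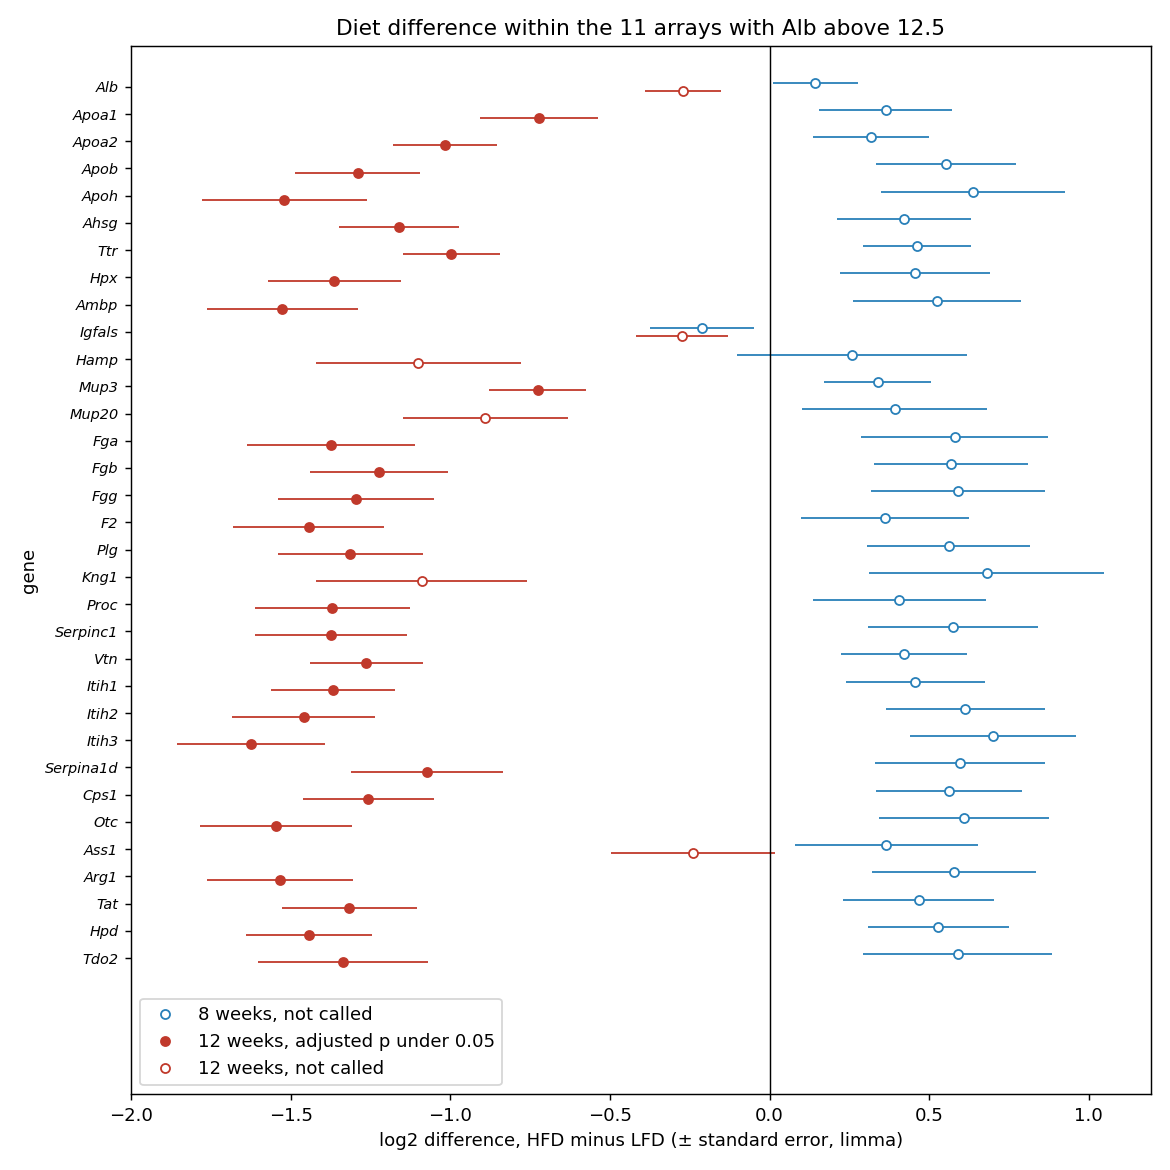
Log2 difference of HFD minus LFD with its standard error for each of the 33 genes, within the 11 arrays with Alb above the threshold, at 8 weeks (3 HFD, 2 LFD arrays) and 12 weeks (3 and 3); filled points passed limma's adjusted p of 0.05. The 12-week points all lie left of 0, down to −1.62, and 32 of the 8-week points lie right of 0, up to 0.70, with none of them called.

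At 8 weeks, 0 of 33 genes were called, with 0.951% of all genes called in either direction. The smallest adjusted p was 0.22 (limma), and 12 genes had an unadjusted p under 0.05, where 15.1% of all genes did. The analysis of variance that the study states also called 0, beside 3.76% of all genes. Differences were positive for 32 genes, while 50.4% of all genes were negative, with a median of 0.53 and a highest value of 0.70. The median was 0.28 without LFD array 2 and 0.72 without LFD array 1. The HFD arrays lay above the LFD arrays without overlap for 28 genes, against 16.6% of all genes, with only 2 LFD arrays. Fgb was at 11.25 and 10.78 under LFD and at 11.64, 11.44 and 11.67 under HFD, a difference of 0.57 ± 0.24 (limma adjusted p = 0.288). Itih3, the gene with the largest fall at 12 weeks, was at 7.39 and 6.89 under LFD and at 7.70, 7.92 and 7.90 under HFD, a difference of 0.70 ± 0.26 (limma adjusted p = 0.225). Igfals was the gene with a negative value, −0.21 ± 0.16.

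By role, the 8-week values lay between 0.36 and 0.70 for the 13 coagulation and inhibitor genes, and all 13 were higher without overlap in the HFD arrays. For the 7 enzyme genes they lay between 0.37 and 0.61, with 6 without overlap and Ass1 overlapping. For the 13 transport genes they lay between −0.21 and 0.64, with 9 higher without overlap. The transport genes that overlapped were Alb (0.14 ± 0.13), Hamp (0.26 ± 0.36) and Mup20 (0.39 ± 0.29). Hpd, with the smallest adjusted p at 12 weeks, was at 10.73 and 10.28 under LFD and at 11.09, 10.95 and 11.06 under HFD. Its groups did not overlap either, but the difference of 0.53 ± 0.22 was in the other direction and was not called (limma adjusted p = 0.281).

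The diet difference itself differed between the times. The 12-week difference minus the 8-week difference was called for 26 genes, all negative, whereas 1.16% of all genes were called in that direction. By role they were 8 of 13 transport genes, 12 of 13 coagulation genes and 6 of 7 enzyme genes. These values ran from −1.07 for Mup3 to −2.32 for Itih3, with limma adjusted p between 0.0134 and 0.0438. For Fgb the value was −1.79 ± 0.32 (limma adjusted p = 0.0189), from 0.57 at 8 weeks to −1.22 at 12 weeks. The 26 were the 27 genes called at 12 weeks without Apoa1, which had −1.09 ± 0.28 (limma adjusted p = 0.108). Without LFD 8-week array 2, which leaves 1 LFD array at 8 weeks, 0 of the 33 genes and 3 genes of the whole table (0.0135%) were called. The median of the 33 values was then −1.59, beside −1.81 with all 11 arrays.

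Averaged over 8 and 12 weeks with equal weights, 0 of 33 genes were called, beside 8.87% of all genes. The smallest adjusted p was 0.0693 (limma, Vtn, −0.42 ± 0.13). The median was −0.38, 32 differences were negative (51.9% of all genes), and 21 genes had an unadjusted p under 0.05, where 22.1% of all genes did. The study's analysis of variance called 0, beside 3.76% of all genes. That rule also asks for a difference of at least 1.5-fold. None of the 33 genes reached this limit, the largest difference being −0.54 for F2, so nothing is read from this 0. Without LFD 12-week array 4, 17 genes were called (9.39% of all genes in that fit), with a median of −0.52. Without HFD 12-week array 1, 4 genes were called (7.54% of all genes), with a median of −0.46.

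Other hepatocyte genes moved at 12 weeks in the same arrays. Of the 38 secreted ones, 28 fell and 1 rose, F7, a clotting factor gene, by 0.85 ± 0.21. Serpinf2, an inhibitor of plasmin, fell by 1.57 ± 0.19 and Lcat, the cholesterol-esterifying enzyme of plasma, by 1.48 ± 0.20. Of the 34 metabolic ones, 30 fell, among them the bile acid carrier Slc10a1, by 1.63 ± 0.21, and Aldh8a1, by 1.80 ± 0.21. Of 14 liver transcription factor genes, 10 fell and 0 rose, for example Hnf4a by 1.20 ± 0.18 and Prox1 by 1.40 ± 0.23. The medians were −1.25, −1.35 and −0.78 in that order, beside −1.30 for the 33 genes.

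Acute-phase genes were divided, with 5 of 11 lower and 2 higher. C-reactive protein (Crp) fell by 1.53 ± 0.19 and ceruloplasmin (Cp) by 1.17 ± 0.16, while Lbp, the lipopolysaccharide-binding protein gene, rose by 0.65 ± 0.14 and haptoglobin (Hp) by 0.59 ± 0.15. Hp, at 11.97 to 13.19 in the 11 arrays and up to 13.06 in the others, was high on both sides. So was Lbp, at 10.95 to 11.95 and 9.77 to 12.10 in that order. Cp overlapped between the sides too, at 9.26 to 10.96 and 9.10 to 10.48. Of 7 Kupffer cell markers 3 fell and 1 rose, and of 9 sinusoidal endothelial markers 3 fell, Clec4g by 1.21 ± 0.18. Of 9 stellate cell markers 3 fell, Colec10 by 0.92 ± 0.20, Lrat by 0.99 ± 0.22, and Reln by 0.74 ± 0.17. Of 13 adipocyte markers 1 fell, Slc2a4, the insulin-dependent glucose transporter (−0.97 ± 0.14), and 1 rose, leptin (Lep, 0.68 ± 0.17). Xist in the LFD arrays at 12 weeks was at 6.76, 6.46 and 5.94 and in the HFD arrays at 5.37, 5.03 and 5.36, so it ran in the same direction as the 33 genes.

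The level of the 72 other hepatocyte genes, taken as 1 mean, lay 1.16 lower under HFD at 12 weeks and 0.44 higher at 8 weeks. Relative to it, the 12-week difference of the 33 genes had a median of −0.14 and 23 genes lay within 0.3 of 0. The largest negative relative values were those of Itih3 (−0.46), Otc (−0.39) and Arg1 (−0.37), and Ahsg was at 0.00. Alb (0.89), Igfals (0.89), Apoa1 (0.44) and Mup3 (0.43) were higher relative to that mean in every HFD array than in any LFD array. The subtraction moved every gene's difference by the same amount, so genes with small differences came out positive by construction. Igfals had not separated the arrays, and Alb's range had been narrowed by the choice of arrays. In the other direction, 11 genes were lower without overlap, Apob, Apoh, Ambp, Itih1, Itih2, Itih3, Cps1, Otc, Arg1, Tat and Hpd, and the remaining 18 overlapped. The share over all genes was not counted for these relative values, so nothing is read from these counts. At 8 weeks the relative median was 0.09 and 32 genes lay within 0.3 of 0. These relative values were not tested. With that mean as a covariate in the fit, 0 of the 33 genes were called at 12 weeks and their median difference was 0.045, with 2 genes called over the whole table in place of 1800. The 12-week diets did not overlap in that mean, at 8.016 to 8.839 under LFD and 7.124 to 7.495 under HFD. Such a fit can hardly separate diet from the covariate, so nothing is read from the 0.

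**Figure D4:**
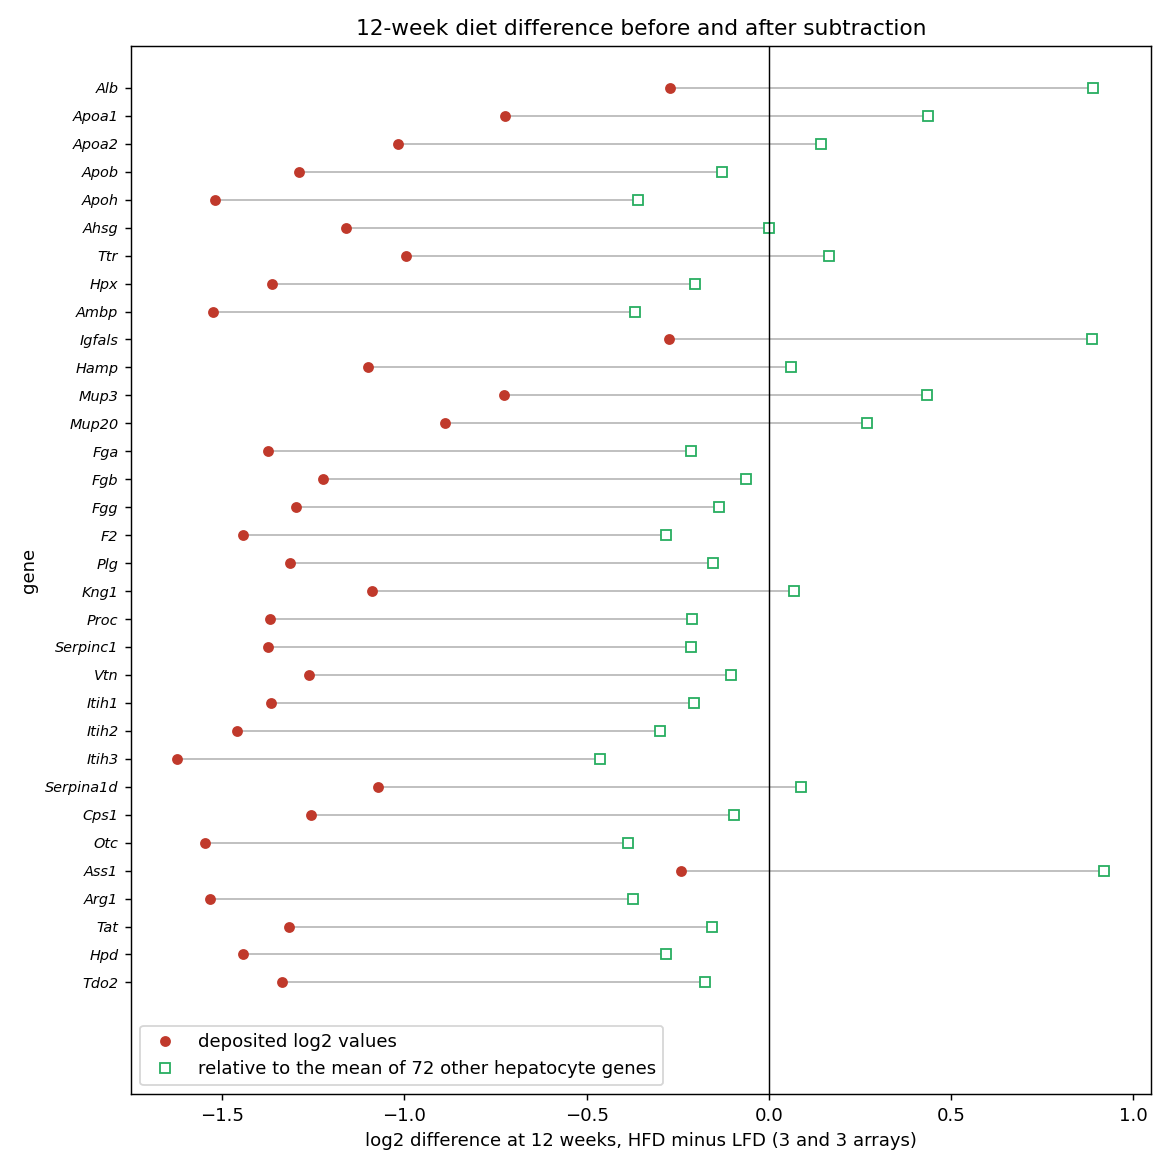
Log2 difference of HFD minus LFD at 12 weeks (3 and 3 arrays with Alb above the threshold) for the 33 genes, from the deposited values (filled circles) and relative to the mean of 72 other hepatocyte genes (open squares). Subtraction moves every gene by 1.16 to the right, which places 23 genes within 0.3 of 0 and Alb, Igfals and Ass1 near 0.9.

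By the labels alone, with all 25 arrays and 7 group means, none of these genes was called between the diets. At 4 weeks 0 of 33 were called (0.212% of all genes), with a median of −0.10 and a smallest adjusted p of 0.563 (limma). Left-out arrays moved that median between −0.64 (without HFD array 1) and 0.21 (without HFD array 3). The diets overlapped for all 33 genes there, while 4.68% of all genes lay higher and 4.41% lower without overlap, and Alb differed by −0.75 ± 1.50. At 8 weeks 0 of 33 were called (2.4% of all genes), with a median of 1.97 and a smallest adjusted p of 0.48 (limma). Single arrays moved that median, to 1.08 without LFD array 3 or 3.04 without HFD array 1. It was 1.19 without LFD array 4. At 12 weeks 0 of 33 were called (4.46% of all genes), with a median of −1.56 and a smallest adjusted p of 0.447 (limma). That median was −0.37 without HFD array 3 and −2.49 without LFD array 3. An unadjusted p under 0.05 was reached by 0 genes at each of the 3 times, where 9.33%, 13.7% and 16.1% of all genes did. The study's analysis of variance called 0 at each, beside 2.1%, 3.67% and 5.12% of all genes. Arrays of both sides stand in each group at 8 and 12 weeks, and the standard errors were accordingly wide, 1.55 for Apob against its differences of 2.51 at 8 weeks and −1.76 at 12 weeks. With the side of the Alb threshold as a block, 20 genes were called at 12 weeks, beside 6.57% of all genes in that fit. That block is built from Alb, so it uses the pattern by which the genes were chosen.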

How the data were processed

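Total RNA was hybridised to 25 arrays. The authors deposited log2 values of 34472 transcript clusters (1.73 to 14.13), made with Transcriptome Analysis Console 4.0.2 per the design text and the submitters' processing notes; the normalization is not given in the sources used here, and array medians were 5.04 to 5.36. Of the clusters, 23521 had 1 gene symbol, and the one with the highest mean stood for a gene (22180 genes). Members and lists were chosen with earlier results of these data known. Groups follow the labels. Group means were fitted with limma 3.58.1 in R 4.3.3, in the 11 arrays with Alb above 12.5 (7 residual degrees of freedom) and in all 25 (18), with default eBayes and Benjamini-Hochberg adjustment over all genes. The code was tested on simulated data. Other steps used Python 3.11.15 with pandas 2.3.3.

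Values were given for Alb, for genes called in a diet comparison, for the 3 genes of each role with the largest and the 2 with the smallest difference between the sides, and for the 2 with the widest and the 2 with the narrowest spread. Of the other lists, counts and up to 4 called genes with the smallest p were given. F7, Lbp, Hp, Xist, and the genes of other lists set against each other by side, were picked after their values were seen. Alternatives were quantile normalization, median centring, a filter on low means, the mean of a gene's clusters, array weights, moderation with a trend and robust, a block for replicate number, the study's analysis of variance (unadjusted p under 0.05 and at least 1.5-fold), all 25 arrays with side and group as cells, the mean of other hepatocyte genes as a covariate, the side as a block, leaving out arrays with epididymis transcripts, and each array left out in turn. The replicate numbers were not used to pair the arrays in the main fits. Raw intensity files were not used here.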

Additional observations from a re-analysis of the deposited data

Results flagged for a closer look

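In some groups 1 array stood apart from the other 3 by a gap larger than the critical value of Dixon's outlier test, which chance alone passes in about 1 in 20 groups. Under HFD at 12 weeks, array 3 was apart as the lowest for 28 genes. Under HFD at 8 weeks, array 1 was apart as the lowest for 31 genes. Under LFD at 12 weeks, array 3 was apart as the lowest for 7 genes, Alb, Apoa2, Ttr, Hamp, Mup3, Mup20 and Serpina1d. Under LFD at 4 weeks, array 1 was apart as the highest for 1 gene, Hpd, at 7.51. These genes were chosen for differences between arrays, so the counts are a description. The diet difference differed between 12 and 8 weeks, by the test of that difference, for 26 genes within the 11 arrays.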

How the results depend on the processing

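The 12-week count of 27 genes within the 11 arrays was 24 to 30 when each array was left out (4.7% to 7.94% of all genes). Apoa1 and Serpina1d lost their calls without HFD array 2, LFD array 1 or LFD array 2, and Mup3 without LFD array 1. The count was 11 (4.13% of all genes) in a fit of all 25 arrays by side and group. With the mean of other hepatocyte genes as a covariate it was 0 (0.00902%). The diet-by-time count of 26 was 4 with all 25 arrays (0.415% of all genes) and 0 with the covariate (0%). When arrays were left out it ran from 0 (without LFD 8-week array 2) to 28, with 10 without LFD 12-week array 2, 13 without HFD 8-week array 4, 15 without HFD 8-week array 2, HFD 12-week array 2 or HFD 12-week array 4, and 17 without LFD 12-week array 1. In these fits the counts of 10 to 17 stood beside 0.437% to 0.649% of all genes, and those of 28 beside 0.924% and 1.85%. The count of 0 over the mean of both times became 4 without genes of low mean, where 21.2% of all genes were called. It became 2 with trend and robust moderation and 6 with array weights, each beside 10.5% of all genes. With arrays left out it ran from 0 to 17, the 17 beside 9.39% of all genes. By the labels, the 12-week count of 0 became 20 with the side as a block (6.57% of all genes). The 8-week count within the 11 arrays and the label counts at 4 and 8 weeks stayed at 0 in every alternative run. With the covariate, differences turned positive at 12 weeks for Apoa1 (0.18), Apoh (0.10), Ambp (0.0176), Fga (0.32), Fgb (0.0948), Fgg (0.23), F2 (0.10), Plg (0.18), Proc (0.15), Serpinc1 (0.0783), Serpina1d (0.27), Cps1 (0.045) and Tdo2 (0.37), and for the diet-by-time value in Apoh (0.0792), Ambp (0.0749), Fga (0.37), Fgb (0.0235), Fgg (0.21), F2 (0.31), Plg (0.18), Proc (0.31), Serpinc1 (0.0506), Serpina1d (0.19) and Tdo2 (0.42), with none called. Among the 11 arrays the diets did not overlap in that covariate at 8 or 12 weeks, so nothing is read from these signs or from the counts of 0 with the covariate. The cause was not tested. With the replicate block, 30 genes were called at 12 weeks (7.01% of all genes) and 28 for the diet-by-time value (1.39%). In the other comparisons 0 were called, beside 0.0902% to 4.91% of all genes. Correlations of same-numbered deviations at 12 weeks within the 11 arrays were 0.03, −0.10 and −0.03. By the labels, with arrays of both sides, they ran from −0.61 (replicate 1 at 8 weeks) to 0.60 (replicate 3 at 12 weeks). No pairing by number was assumed. The separation of the sides held for 30 to 31 genes. The number of arrays, 2 or 3 a group within the 11, and the unstated normalization limit these values.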
